A study of Homo sapiens with 2 samples.

Results

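SF3A1 is a subunit of the U2 small nuclear ribonucleoprotein, the part of the spliceosome that binds the intron branch site. In crosslinking and immunoprecipitation (CLIP), ultraviolet light ties a protein to the RNA it touches. Reverse transcriptase can then skip the tied base, so that a sequenced tag lacks it. Crosslink-induced mutation site (CIMS) analysis lists positions where tags lack a base more often than a background model allows. This text is about the listed positions where the base was missing from every tag and where tags were plentiful.

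The data came from 2 anti-SF3A1 libraries of C4-2B cells, a prostate cancer epithelial line of the LNCaP lineage, here prepared for CRISPR interference. Both libraries form the only group: the cells were taken 48 h after seeding and received 400 mJ/cm2 of 254 nm light, and each precipitation used 2 µg of anti-SF3A1. Input, mock or genomic DNA libraries were not analysed here, and no other genotype or treatment was compared. The deposited list pools the libraries at a false discovery rate of 10%, so no value carries an error between replicates and depth per library is unknown.

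Members were selected by 2 measured values of each listed site, the number of tags over it (k) and the number of tags with the deletion (m). A site was a member when m equalled k and k was 100 or more. Of the 2960 listed sites, each 1 nt wide, 395 were members, or 13.3% of the list. They are set beside 294 sites with 100 or more tags and an incomplete deletion, and beside 1848 complete sites with fewer tags. Coverage and deletion share chose the members, so both are given as description only. Shares of sites carry exact Clopper-Pearson 95% intervals, which cover counting error alone. Sites of 1 pool are not replicates, so differences between kinds of site were not tested.

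The sequence around a member could be read for the 4 members that lie in a RefSeq promoter window of build GRCh38.p14 (250 nt before to 50 nt after an annotated start). They are shown because a deleted base inside a run of the same letter cannot be placed within the run. Each is printed 5′ to 3′ on the strand of the site, with the deleted base in capitals, and all of its tags lacked that base.

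TRIM39, chr6:30329061-30329088, plus strand, 182 tags: aattgggggttgtGtgtcagtttactaa
upstream of MPLKIP, chr7:40134697-40134725, minus strand, 163 tags: cctggcggaaccttTgtgacgccggaact
TBC1D32, chr6:121334678-121334706, minus strand, 141 tags: tagtcgggagagccTgaggtctgctggta
ZNF24, chr18:35343888-35343916, minus strand, 127 tags: ccgcggtcctgagtGctgggaagaggggc

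The deleted base was G in 2 of these members and T in 2. It stood alone in 3 of them and ended a run of 3 T in the MPLKIP sequence. Among 15 other listed sites in such windows the deleted base was T in 6, G in 5 and C in 4, 12 lay in a run of 2 or more and 5 in a run of 3 or more, against 1 of the 4 members at either length. The MPLKIP member lay 89 nt before the annotated start, outside any gene body. The TRIM39 member lay inside the TRIM39 body and 237 nt before the start of the readthrough gene TRIM39-RPP21. The TBC1D32 member lay 212 nt before 1 annotated start of that gene and 37 nt after another. The ZNF24 member ran on the strand of ZNF24, a zinc finger gene, in the promoter window of the oppositely directed LOC124904283. These 4 sit near gene starts and do not stand for the members at large, whose sequence was not analysed here.

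Coverage of the members was skewed, with most just above the limit and a few far beyond it. The lowest k was 100, the median 134 (95% interval 129 to 141; interquartile range 113 to 171) and the highest 1545. There were 247 members with 100 to 149 tags, 89 with 150 to 199, 53 with 200 to 399 and 6 with 400 or more. In all, 64468 tags lay over members, 26.2% of the 246057 tags over the whole list, and 0 of the 64468 lacked the deletion. The 6 best covered members held 10.8% of those tags. With 100 of 100 tags deleted, the Clopper-Pearson lower bound of the deleted share was 96.4%. A separate, simpler rule, 3 divided by the number of tags, sets a somewhat tighter limit, an undeleted share of up to 3%. At 1545 tags the Clopper-Pearson lower bound was 99.8%, and the separate rule allowed an undeleted share of 0.194%. These limits treat tags as independent molecules. They also ignore that members were picked because every tag was deleted, as does the interval given below for a mitochondrial member. They therefore describe the counts and do not estimate the true deleted share of a member.

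**Figure D1:**
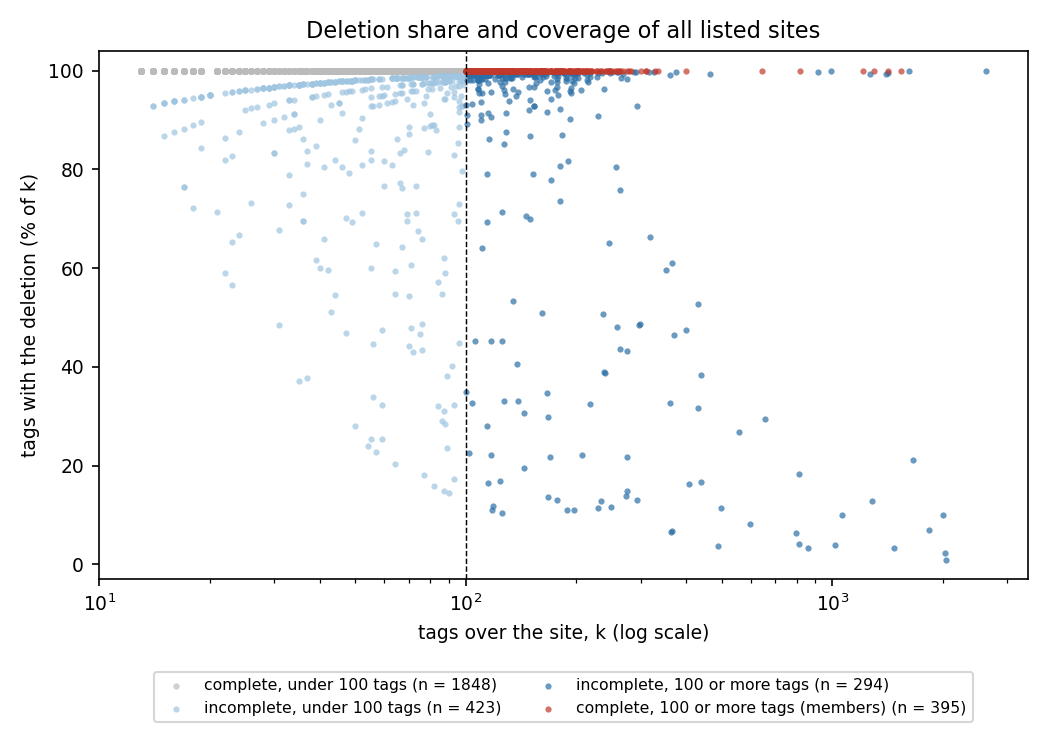
Share of tags with the deletion (y axis, %) against the number of tags over the site (x axis, log scale) for all 2960 listed sites, coloured by kind of site; the dashed line marks 100 tags. The 395 members form the line at 100% to the right of it, and the incomplete sites spread below it, most widely at the highest coverage. Sites with the fewest tags had little room to be incomplete on this list.

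The limit of 100 tags and the demand for every tag both cut through a continuous range. Just inside were 20 members with 100 tags or 1 more, among them SRRM2, EIF4A2 and FKBP5, each 1 tag above the limit, and NCAM2, STAG1 and HSPA9 at 100. Just outside were 14 complete sites with 98 or 99 tags, including KMT2C, GAK and PANK3 at 99. A further 100 sites with 100 or more tags missed the rule by exactly 1 tag and 29 by 2 tags. NETO1 had 1614 of 1615 tags deleted, LOC105376626 had 989 of 990, CDK10 373 of 374, SCFD2 326 of 327 and ARID1A 290 of 291. The complete sites made up 91.8% of the 548 sites with under 25 tags (89.2 to 93.9), 65.3% of the 378 with 100 to 149 (60.3 to 70.1), 48.6% of the 109 with 200 to 399 (38.9 to 58.4) and 15.8% of the 38 with 400 or more (6.02 to 31.3). Over all 689 sites with 100 or more tags the share was 57.3% (53.5 to 61.1). The lowest coverage on the list was 13 tags, where every site was complete, and with 14 tags the lowest deleted share was 92.9%. At higher coverage lower shares were listed, such as 13 of 90 tags in HSP90AA1. The fewer the tags, the less room a listed site had to be incomplete. Whether the fall of the complete share with coverage goes beyond this limit of the list was not tested.

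The incomplete sites of the same coverage fell into near-complete and clearly partial ones. Of the 294, 109 had a deletion share of at least 99% and 90 had between 90% and 99%. Only 16 lay between 40% and 60%, 22 between 60% and 90%, and 57 below 40%. Protein-coding gene bodies held 81.7% of the sites at 99% or more (73.1 to 88.4) and 43.9% of those below 40% (30.7 to 57.6). Several of those below 40% were assigned to 1 long noncoding gene, TALAM1, the antisense transcript of MALAT1, and others lay on the mitochondrial genome. The TALAM1 sites all lay on the plus strand, as did the site given to MALAT1.

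Members lay mostly in protein-coding gene bodies. These held 343 of 395 (86.8%, 83.1 to 90.0), in 329 genes, against 213 of 294 incomplete sites (72.4%, 67.0 to 77.5) and 1638 of 1848 less covered complete sites (88.6%, 87.1 to 90.0). The share was 86.1% (364 of 423) among incomplete sites with under 100 tags and 86.4% (2558 of 2960) over the whole list, so members were near the list as a whole and the well covered incomplete sites stood below it. Long noncoding RNA genes held 22 members (5.57%, 3.52 to 8.31) and 33 incomplete sites (11.2%, 7.85 to 15.4). Many of these incomplete sites lay close together on the plus strand, between positions 65499713 and 65505917 of chromosome 11. They were assigned to 1 gene, TALAM1, the antisense transcript of MALAT1. The site given to MALAT1 lay on the same strand, so TALAM1 is not settled as their host. MIR99AHG held 4 more. The intervals treat neighbouring sites as independent, so a difference between classes cannot be told from the weight of single genes. Another 25 members (6.33%, 4.14 to 9.20) lay in no annotated gene, and 18 incomplete sites did (6.12%, 3.67 to 9.50). The mitochondrial genome held 2 members and 14 incomplete sites. Small nuclear RNA genes, the RNA partners of the spliceosome, held 0 members and 4 incomplete sites, and 6 of all 2960 sites (0.203%). Small nucleolar RNAs held 2 members and 5 incomplete sites, and 14 of all sites (0.473%). The remaining member lay on an unplaced contig of chromosome 22. Whether a site lay in an exon or an intron could not be read from the gene table used here.

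Host genes of members covered a wide range of lengths. The median protein-coding host was 86.4 kb (interquartile range 31.1 to 182), against 67.3 kb (33.0 to 159) for incomplete sites with 100 or more tags and 70.5 kb (29.8 to 161) for less covered complete sites; the ranges overlap widely. Of the 343 members in protein-coding bodies, hosts over 300 kb held 41 and those under 20 kb held 52. Matching counts for the other listed sites were not made, so these cannot be called high or low. The shortest nuclear protein-coding host, the 1.34 kb gene WDR83OS, encodes a small membrane protein and held a member with 264 tags.

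Strand along the genome was close to even, with 214 members on the plus strand (54.2%, 49.1 to 59.2) and 181 on the minus strand. Against the direction of the host gene, the members were far from even. The promoter table gave a direction for the hosts of 283 members that lay in exactly 1 gene. It gave none for hosts on chromosome 8, which held 19 members, so direction and position results leave that chromosome out. Of these, 271 (95.8%, 92.7 to 97.8) ran on the strand of the gene, as did 184 of 189 incomplete sites (97.4%, 93.9 to 99.1) and 1223 of 1271 less covered complete sites (96.2%, 95.02 to 97.2). In protein-coding hosts 258 of 265 members were sense (97.4%, 94.6 to 98.9), and in long noncoding hosts 13 of 18 (72.2%, 46.5 to 90.3). The intervals of all 3 kinds of site overlap.

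**Figure D2:**
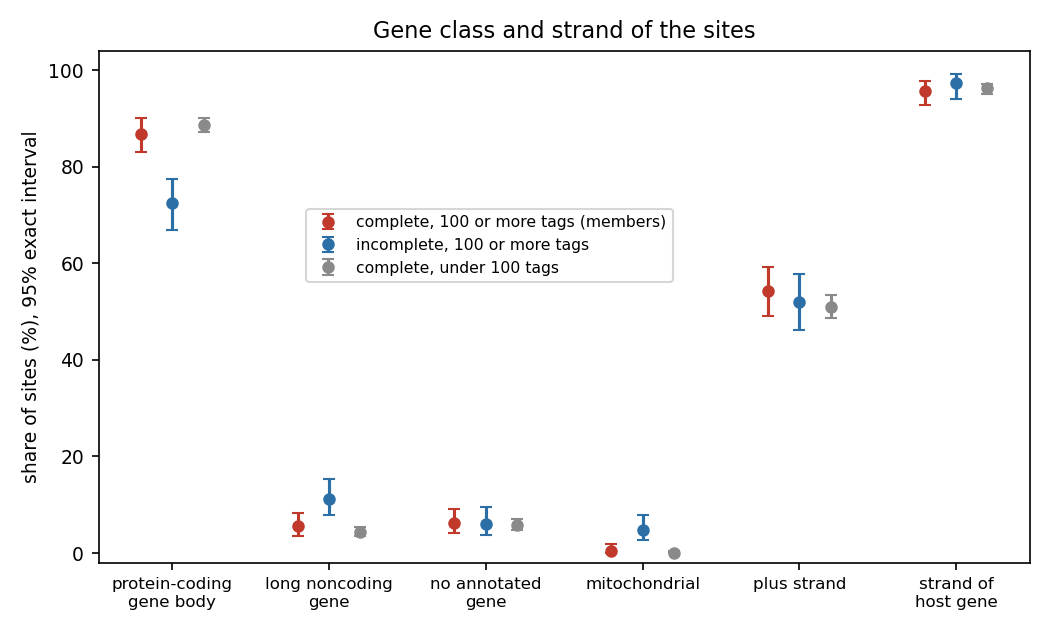
Share of sites (y axis, %, with exact 95% intervals as bars) in each gene class, on the plus strand and on the strand of the host gene, for the 395 members (red), 294 incomplete sites with 100 or more tags (blue) and 1848 complete sites with fewer tags (grey). The red and grey points lie close together in each class, the blue point is lower for protein-coding bodies, and all 3 overlap near 96% for the strand of the host gene.

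The 12 antisense members included the 2 with the most tags of all. DIO3OS, a long noncoding RNA transcribed opposite the deiodinase gene DIO3, held a plus-strand member with 1545 tags at chromosome 14, position 101553659, in a gene that runs on the minus strand. UBASH3B, which encodes a phosphatase that restrains tyrosine kinase signalling, held a minus-strand member with 1418 tags at chromosome 11, position 122695611, against the direction of the gene. The other long noncoding hosts with an antisense member were ZNF652-AS1 (263 tags), LIFR-AS1 (145), LOC105369225 (144) and LINC00299 (107). The other protein-coding ones were the inositol phosphate kinase gene IP6K1 (158), the cytokine receptor gene IL12RB2 (141), DMTF1 (120), ZNF446 (107) and ASB6 (100), and EFHD2, 1 tag above the limit. Antisense members had a median of 142.5 tags and sense members 134. Of members with 200 or more tags, 3 of 38 were antisense, and of those with 100 to 199, 9 of 245.

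Overlapping genes blurred the host for some members. A member with 182 tags at chromosome 15, position 41310876, was given to OIP5, which runs on the minus strand, but it ran on the plus strand like OIP5-AS1, a noncoding RNA that covers the same base. A plus-strand member with 117 tags given to FLRT3 lay in MACROD2, which runs that way. A minus-strand member with 213 tags given to the receptor gene GPR146 lay in CHLSN, which runs on the minus strand.

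Along protein-coding hosts the sense members were spread over the whole body. Their median position was 52.6% of the gene from its 5′ end (n = 258), against 52.8% for incomplete sites (n = 170) and 50.8% for less covered complete sites (n = 1188). From the 5′ end, 4 equal parts of the gene held 59, 65, 56 and 78 members. Of 309 members whose host has an annotated start in the promoter table, 13 lay within 1 kb of one, and the median distance to the nearest start was 26.7 kb. Among those 13 were BRD2, a bromodomain reader of acetylated histones (182 tags, 668 nt away), SHMT1, a serine and glycine enzyme (177 tags, 476 nt), and HNRNPU (143 tags, 509 nt). No matching count was made for the other listed sites, so 13 cannot be called high or low. The promoter table also lacks some starts. An NCAM2 member lay 20866 nt from the 5′ end of the gene but 127888 nt from the nearest listed start.

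Members were found on all 22 autosomes and the X chromosome, from 8 on chromosome 10 to 33 on chromosome 1. As a share of the sites with 100 or more tags, they ranged on the nuclear chromosomes from 36.4% on chromosome 10 (8 of 22; 17.2 to 59.3) and 40.0% on chromosome 11 (22 of 55; 27.0 to 54.1) to 78.6% on chromosomes 13 and 18 (11 of 14 on each; 49.2 to 95.3). The X chromosome had 9 of 20 (45.0%, 23.1 to 68.5) and the autosomes together 383 of 650 (58.9%, 55.0 to 62.7). On the mitochondrial genome 2 of 16 such sites were complete (12.5%, 1.55 to 38.3), the lowest share of any chromosome. Strand was uneven on 2 small chromosomes: 10 of 11 members of chromosome 21 and 8 of 9 of chromosome 22 lay on the plus strand. On chromosome 21, 8 of the 10 plus-strand members were in MIR99AHG and NCAM2.

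**Figure D3:**
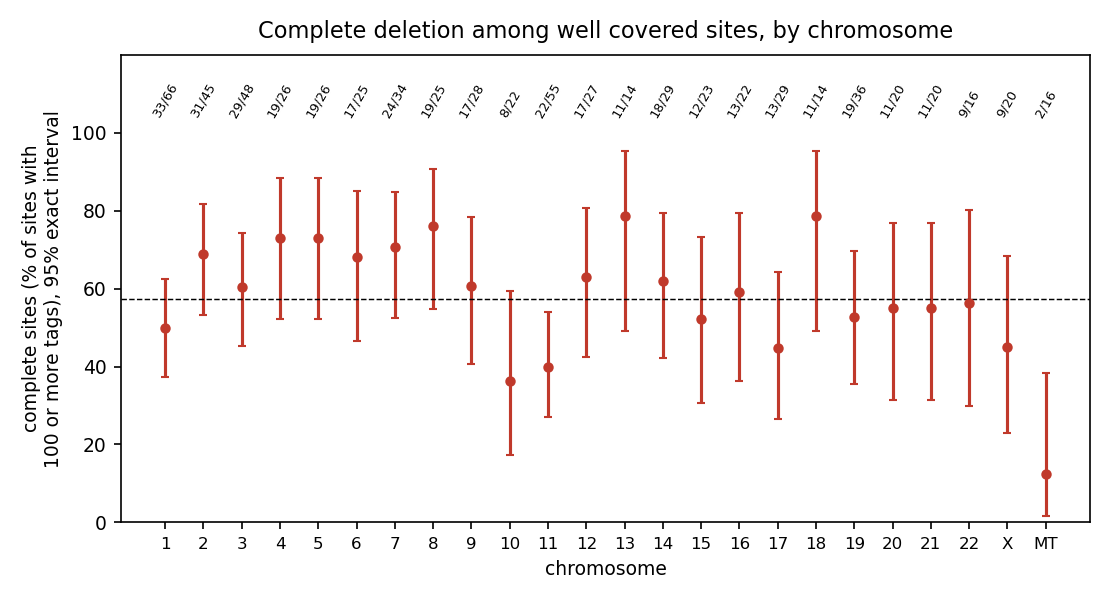
Complete sites as a share of all sites with 100 or more tags (y axis, %, with exact 95% intervals as bars) on each chromosome (x axis; MT is the mitochondrial genome); the counts stand above each point and the dashed line marks the 57.3% of all chromosomes. All intervals except those of chromosome 11 and the mitochondrial genome cross the line; the mitochondrial point, at 2 of 16, lies lowest.

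The best covered members were in genes of varied function. After DIO3OS and UBASH3B came LIMK2, a kinase that phosphorylates the actin-severing protein cofilin, with 1303 of 1303 tags at chromosome 22, position 31241050, and SMC4, a core condensin subunit, with 1215 of 1215 at chromosome 3, position 160414498. TOX, a nuclear HMG-box factor, had 819 and a site in no annotated gene on chromosome 13, position 37346877, had 642. ATAT1, the enzyme that acetylates alpha-tubulin, followed with 398. ANK3, which encodes the membrane adaptor ankyrin G, had 334, the noncoding LOC107986606 had 328, and the kinase gene PRKD1 and the engulfment adaptor gene GULP1 had 310 each. MIR99AHG had 300, the stress granule protein gene UBAP2L 282, the sphingomyelinase signalling gene NSMAF 279 and the adhesion gene CADM2 275. LIMK2, SMC4, ATAT1, ANK3, LOC107986606, PRKD1, GULP1, MIR99AHG and UBAP2L carried the deletion on their own strand; the table gave no direction for TOX, NSMAF or CADM2.

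Few genes held several members. The 369 members inside a gene fell in 350 genes, of which 336 held 1 member, 11 held 2, 2 held 3 and 1 held 5. Thus 14 host genes (4%) held 2 or more, with 33 members between them, against 416 of the 2090 host genes of the whole list (19.9%), a share that rises with the number of sites counted. Of the 336 hosts of a single member, 30.1% held another listed site that was not a member. All members of a gene lay on the same strand in 14 of 14 genes. In those that overlap no other gene at the members, 16 of 16 neighbouring pairs shared a strand (79.4 to 100%).

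MIR99AHG, the host transcript of the microRNAs miR-99a and let-7c on chromosome 21, held the most. Its 5 members had 115, 120, 165, 300 and 111 tags in genome order, lay on the plus strand with the gene and spanned 161542 nt. The nearest pair was 14287 nt apart. All 5 lay before the MIR99A hairpin, which begins 24940 nt after the last of them. The gene held 20 further sites: 14 complete with fewer tags, 4 incomplete with 100 or more and 2 incomplete with fewer. Complete and incomplete sites thus stood in the same gene body and on the same strand.

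TBL1XR1, a subunit of the NCoR and SMRT corepressor complexes, and NCAM2, a neural cell adhesion molecule, held 3 members each. The TBL1XR1 members had 180, 155 and 131 tags on the minus strand, with the gene, and its only other site was complete. The NCAM2 members had 121, 118 and 100 tags over 523523 nt, the last near the 3′ end of the 545 kb gene. SMC4 held a second member with 116 tags, 4332 nt after the first, and ANK3 a second with 245, 86542 nt from the first. ANK3 had 14 other sites, of which 6 (2 with 100 or more tags and 4 with fewer) were incomplete.

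The other genes with 2 members did different work in the cell. NF1, the negative regulator of Ras (182 and 142 tags), ITGAV, the alpha-v integrin subunit (175 and 123), and RABGAP1, a Rab GTPase-activating protein (159 and 113), carried theirs on their own strand. AHCY, which hydrolyses S-adenosylhomocysteine, had 155 and 142, and IMPDH1, a guanine nucleotide synthesis enzyme, had 142 and 121 only 728 nt apart, the closest pair. AP3D1, an adaptor of vesicle transport, had 145 and 102, the noncoding PVT1 123 and 103, and the RNA-binding protein gene DAZAP1 121 and 105. TTN, the giant muscle protein gene, had 117 and 113, both on the plus strand, opposite to TTN and in the direction of TTN-AS1, which covers both. RABGAP1 also had a complete site with 98 tags on the other strand.

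**Figure D4:**
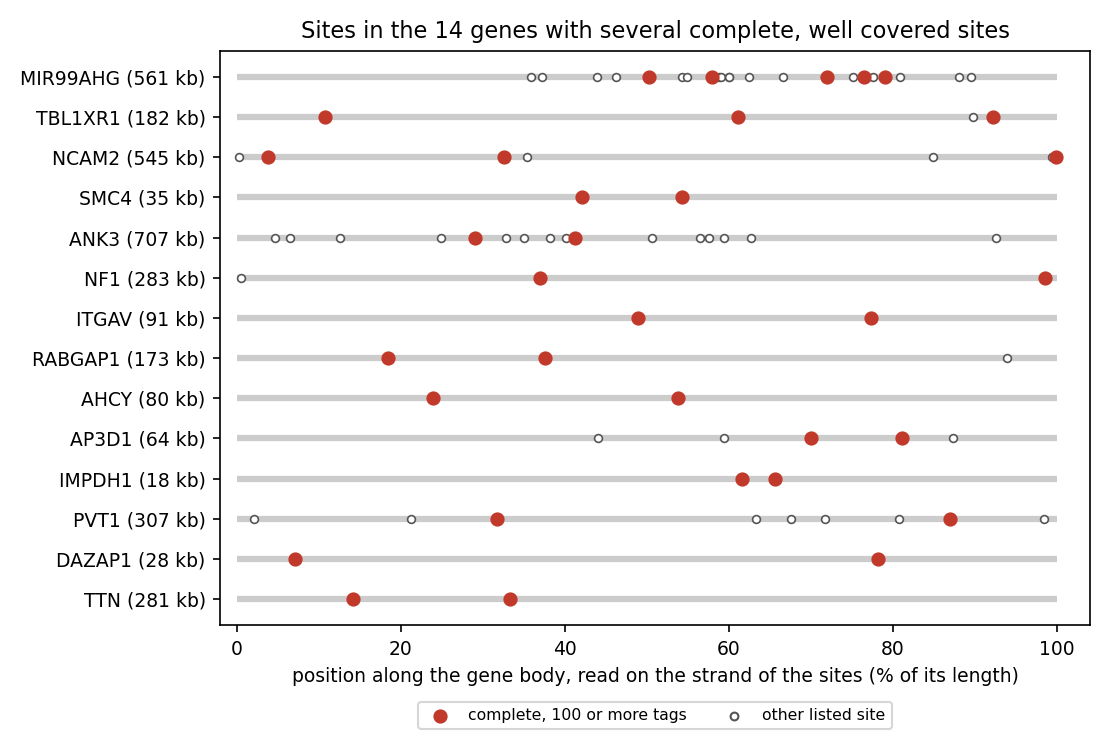
Position of each listed site along the bodies of the 14 genes with 2 or more members, in percent of the gene's length (x axis), read on the strand of the members; red points are members, open points the other listed sites, and gene length stands beside each name. Members are scattered along the bodies, and in MIR99AHG and ANK3 they stand among many other sites.

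Among the other long noncoding hosts, LINC-PINT, a p53-induced RNA, held a member with 171 tags, LOC101927995 one with 162, the snoRNA host SNHG10 one with 133 and DANCR one with 131. CKMT2-AS1 (126), LOC124906107 (124), SOX7-AS1 (111), LINC02882 (100) and LINC02981, 1 tag above the limit, completed the class. Members in SNHG10, DANCR, LINC-PINT, LOC101927995, CKMT2-AS1, LINC02981 and LINC02882 ran with the gene, and direction was not listed for SOX7-AS1 or LOC124906107.

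The 2 snoRNA members lay inside box C/D snoRNAs, which guide RNA methylation and are cut from introns. SNORD11, in the body of NOP58, had 214 of 214 tags, and SNORD63, in the body of the mitochondrial chaperone gene HSPA9, had 112 of 112. HSPA9 held another member with 100 tags 932 nt away, at position 138560149 of chromosome 5.

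Of the 25 members outside annotated genes, 15 lay on the plus strand, and their median coverage was 128 tags. The nearest gene was a median of 12863 nt away and at most 173778 nt, and 5 lay within 1 kb of a gene. These 5 were near DDIAS (110 tags, 73 nt), MPLKIP (163 tags, 89 nt), GALNT16-AS1 (126 tags, 350 nt), ARHGAP35 (142 tags, 587 nt) and the pseudogene RNU6-1329P (165 tags, 631 nt).

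Host genes were also read against 16 lists of genes by function. Over all protein-coding genes with a listed site, 329 of 1953 (16.8%) hosted a member, and each list of protein-coding genes is read beside that share, without a test. Among splicing and RNA-binding genes, SR proteins, which recruit the spliceosome to exons, had a site in 9 of 17 genes and a member in 3: SRSF4 (109 tags), SRSF11 (103) and SRRM2 (1 tag above the limit). The hnRNP list had 10 of 28 with a site and 1 with a member, HNRNPU (143). Of the U2 snRNP list, which holds the partners of SF3A1, 6 of 22 genes had a site and 0 a member; its best covered sites were PHF5A with 62 of 70 tags and SF3B3 with 52 of 52.

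Translation factors had a site in 14 of 35 genes and a member in 3: EIF3I (164 tags), EIF3H (120) and the helicase gene EIF4A2 (1 tag above the limit). Chaperone and secretory genes had a site in 11 of 33 and a member in 4, namely the translocon gene SEC61A1 (163), DNAJC3 (144), HSPA8 (112) and HSPA9 (100). Of chromatin, cohesin and condensin genes, 10 of 25 had a site and 4 a member: SMC4, the SWI/SNF subunit gene ARID1A (129), the condensin II gene NCAPG2 (125) and the cohesin gene STAG1 (100). Adhesion and cytoskeleton genes had 10 of 28 and 3, which are LIMK2, ANK3 and NCAM2. Nuclear long noncoding RNAs had 6 of 16 and 3, namely MIR99AHG, PVT1 and DIO3OS, whose member ran against the gene; over all long noncoding genes with a listed site, 17 of 88 (19.3%) hosted a member. The small number of genes in each list leaves these shares imprecise.

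Of the prostate genes, 1 hosted a member. The luminal list had a site in 13 of 25 genes and a member in 1, the androgen-induced cochaperone gene FKBP5, 1 tag above the limit. The prostate cancer list had 10 of 35 with a site and 0 with a member; the nearest was KMT2C with 99 of 99 tags. Axon guidance and ephrin genes had 5 of 25 and 0. Of the mismatch repair genes, 1 of 8 had a site, MSH3 with 75 of 75 tags, and 0 had a member. Of markers of other cell types, 0 of 20 hepatocyte genes and 1 of 20 neural genes (MBP, a member with 133 tags) had a site. So did 1 of 20 blood genes (CD4, a minus-strand site with 34 of 71 tags) and 1 of 20 stromal genes (TTN). Both TTN sites ran opposite to TTN, in the direction of TTN-AS1. The share of all annotated genes with a site was not computed. None of these counts of genes with a site can therefore be called low or high. The list records sites and not RNA levels, so it cannot show that the prostate markers were expressed.

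The 2 mitochondrial members differ in what is known of the reference at that base. In the reference mitochondrial genome used by hg38, position 3107 is a placeholder kept only to preserve older numbering, and human mitochondrial DNA has no base there. The list holds this position, in the body of the 16S rRNA gene RNR2, on both strands, the only position in the list so recorded. On the minus strand it was a member with 202 of 202 tags (98.2 to 100%), and on the plus strand it had 27 of 41 (65.9%, 49.4 to 79.9). The position therefore entered the list, with every minus-strand tag, although there is no base there to crosslink, while the deletion was not recorded in the rest of its plus-strand tags. Every other listed site in RNR2 lay on the plus strand, and no direction was read for that gene here. The other mitochondrial member, at position 8040 of COX2, a subunit of cytochrome c oxidase, had 132 of 132 tags on the plus strand.

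A deletion in every tag can have more than 1 origin. These data hold no measurement that separates them for nuclear members or for the COX2 member. Genomic DNA and input RNA of the line were not analysed here. Crosslinking and genome difference therefore cannot be told apart at the 393 members outside the mitochondrial genome or at position 8040 of COX2.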

How the data were processed

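The authors deposited 1 list of sites pooled over both libraries; per the submitters' processing notes cutadapt, BWA 0.7.17, SAMtools, UMI-tools and build hg38 were used, with settings and CIMS version not given in the sources used here. For each site the deposited score field is an unnormalized count of deleted tags, and the deposited name, the other field used, repeats it and adds the count of tags over the site. Members were read from the name, whose deleted-tag number matched the score field on 2960 of 2960 lines.

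Genes came from the RefSeq table of GRCh38.p14 (58991 of 59792 rows used; extra scaffolds, repeated symbols and unplaced genes left out), and gene direction, for 27298 genes, from the RefSeq promoter table. A site in several genes was given to a small RNA before a protein-coding gene, to that before a long noncoding RNA and to a pseudogene last, and within a class to the shortest gene. The members and the 16 gene lists were chosen with earlier results of these data known. Named genes were the hosts of the 15 best covered members, genes with several members, noncoding members, up to 4 members per list, and sites next to the limits; antisense hosts, overlapping hosts, members near a gene or a start and the best covered site of lists without a member were named after their values were seen. The assignment of gene and direction was checked on simulated sites drawn from the same gene table and scored only where they lay in 1 gene. That check could not test the choice among overlapping genes. A planned count of members in runs of 1 base needs a genome and was not run. Software was Python 3.11.15 with scipy 1.17.1 for the intervals, pandas 2.3.3 and numpy 2.4.6.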

Additional observations from a re-analysis of the deposited data

How the results depend on the processing

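The share of members in protein-coding bodies, the plus-strand share, the share on the host gene's strand, the agreement of neighbours, the number of genes with several members and the median coverage were recomputed under other settings. A lower limit of 50 tags gave 79 genes with several members and a median coverage of 86. A limit of 150 gave 3 genes and a median of 185.5. A limit of 200 left 59 members, with 81.4% in protein-coding bodies, 92.1% on the strand of the host gene, 1 gene with several members and a median of 236. Medians and gene counts move with the limit by construction. Accepting a deleted share of 99%, merging within 50 nt, 1 member per gene, leaving out overlapping genes, taking the longest host and, added after the data were seen, leaving out the 6 members with 400 or more tags moved no share or median beyond its interval and no gene count by over 1.5 times. No paired analysis was possible because both libraries belong to 1 group and were pooled; for the same reason no library could be left out. Runs of 1 base were not run for lack of a genome. Depth limits each member: at 100 tags an undeleted share of 3% or somewhat more, depending on the rule used, can go unseen.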
